A study of Mus musculus with 36 samples.

Results

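The genes described here are 10 genes of the melanosome and of pigment cells, followed through mouse tumors driven by the ASPSCR1-TFE3 fusion and through the kidneys they were compared to. They were taken by symbol from the count tables, where all 10 were found among 53379 genes: Gpnmb, Pmel, Mlana, Dct, Tyrp1, Tyr, Trpm1, Oca2, Slc45a2 and Sox10. RNA was sequenced from formalin-fixed, paraffin-embedded tissue in 36 libraries of 7 groups. The 6 mice of genotype Sglt2-Cre; ASPSCR1-TFE3 LSL/+ gave 11 kidney tumors from 6 mice, 4 retro-orbital tumors from 4 mice, 3 brain tumors from 3 mice and 4 non-transformed kidneys from 4 mice. Control kidneys were 6 libraries from 3 Sglt2-Cre mice without the fusion allele. The fetal groups were 5 dysmorphic kidneys of genotype Pax8-Cre; ASPSCR1-TFE3 LSL/+ and 3 control fetal kidneys, which the sample labels call Pax8-Cre, while the series' design text allows either Pax8-Cre or the unrecombined fusion allele. LSL stands for a stop cassette that Cre removes, so the fusion is made only where the Sglt2 promoter (proximal tubule) or the Pax8 promoter (nephron and collecting duct lineage) has been active. Neither ages nor strain were given, and no normal orbital or brain tissue was analysed here, so the tumors of those sites were set against control kidney. Total counts ran from 80205573 to 121415057 a library.

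Melanosomes are lysosome-related organelles of pigment cells, and their genes are classical targets of MITF, the melanocyte member of the MiT/TFE factors to which TFE3 also belongs. These factors bind short E-box letters, CACGTG or CATGTG, in promoters. Pigment synthesis itself needs tyrosinase (Tyr), whose step limits the rate, with the related enzymes Tyrp1 and Dct, on a fibrillar matrix made of Pmel, while Sox10 is a neural crest factor that melanocytes share with glia. Genes of this set, GPNMB and PMEL among them, are used in pathology to recognise human tumors with TFE3 fusions.

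Promoter sequence was at hand for 6 of the 10 genes in RefSeq (GRCm38.p6), as windows of 250 bases before to 50 bases after a start site, with 2 such windows for Trpm1. Pmel, Mlana, Slc45a2 and Sox10 were not in that table. The stretches below are shown because they hold every match to the E-box letters before a start site in the genes that were raised in tumors and in Tyr, which was not. Capitals mark CATGTG, its reverse complement CACATG, or CACGTG.
Tyrp1, chr4:80834155-80834184, plus strand: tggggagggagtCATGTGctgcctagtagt
Tyr, chr7:87493516-87493545, minus strand: gaaaaagttagtCATGTGctttgcagaaga
Dct, chr14:118052379-118052408, minus strand: tgcacttagggtCATGTGctaacaaagagg
Dct, chr14:118052461-118052490, minus strand: gcttggctgggaCACATGagcccaataaag
Trpm1, first window, chr7:64153682-64153711, plus strand: ccaaatcctcatCATGTGcccaccccaaac
Trpm1, second window, chr7:64185218-64185247, plus strand: agtaattggaagCACGTGgctcctcttcct
Oca2, chr7:56239561-56239590, plus strand: ttgagcttgctaCACATGgctggaattttc
The match began 46 bases before the start in Tyrp1 and 21 bases before it in Tyr. The Gpnmb window held neither motif, although Gpnmb had the highest mean level per kilobase of the 10 genes at all 3 tumor sites. Searched on both strands, CATGTG was found in 14.15% and CACGTG in 7.15% of all 32851 promoter windows of this length. The letters are a description of these windows and say nothing of which factor was bound.

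Pigment cell genes were divided by their levels, which is a description and was not tested. Levels are given in CPM, counts scaled to library size, here after TMM scaling over the libraries of both tables together. A gene was taken as raised in every tumor where all 18 tumor libraries lay above all 6 control kidney libraries, and 4 of the 10 genes did so (Gpnmb, Pmel, Trpm1 and Tyrp1), compared to 4.38% of 36538 genes with a count in these libraries. Under the limit of 1 CPM in every library no gene was near zero, since all those low in the adult mice reached higher levels in fetal kidneys. In the 28 adult libraries alone, a restriction chosen after the levels were seen, Mlana, Tyr and Slc45a2 stayed under 1 CPM throughout. Dct, Oca2 and Sox10 fell in neither class and were high in some tumors only.

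**Figure D1:**
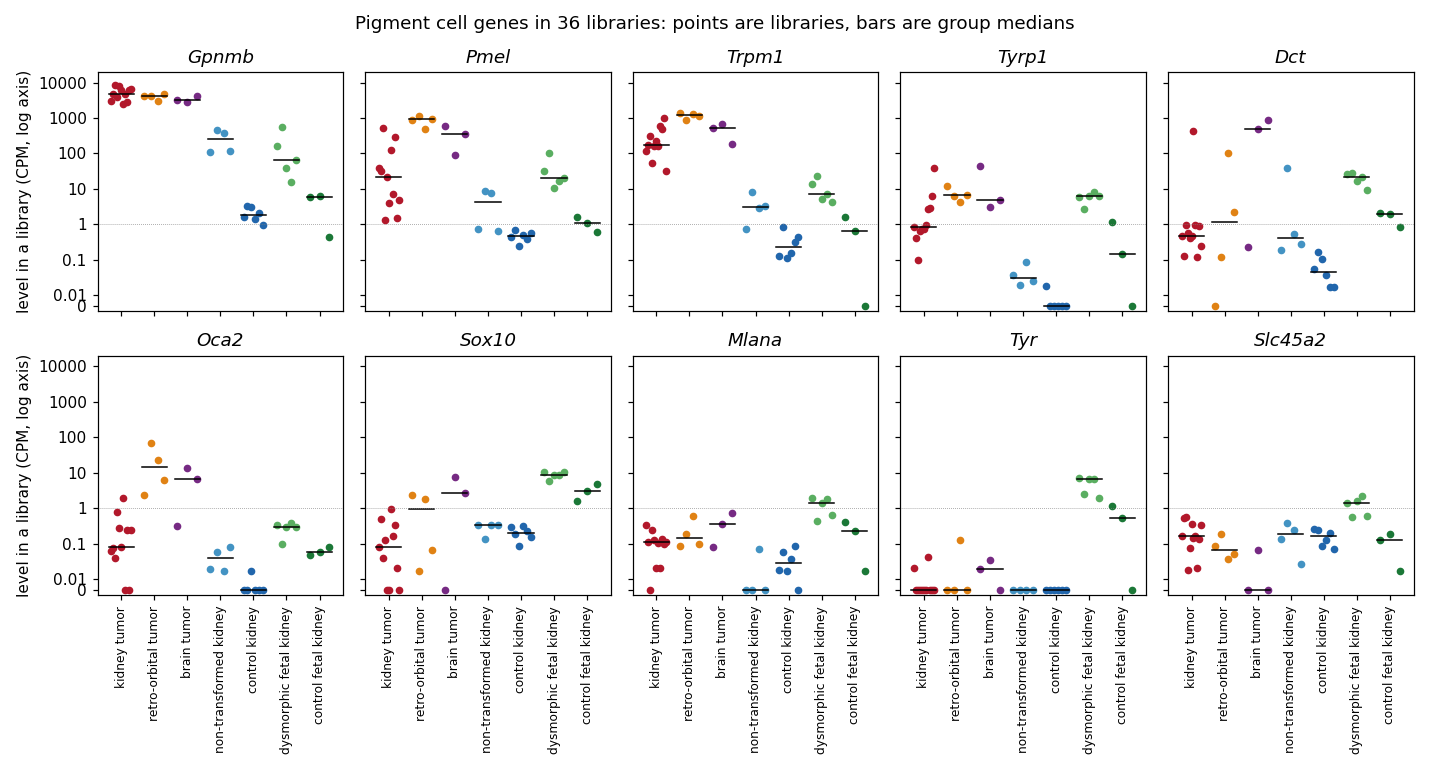
Level of each of the 10 genes in each of the 36 libraries by group, in CPM on a log axis, with points for libraries, bars for group medians, a dotted line at 1 CPM and levels of 0 drawn at 0.005. Gpnmb, Pmel, Trpm1 and Tyrp1 lie above the control kidneys in all 18 tumor libraries, while Mlana, Tyr and Slc45a2 stay under 1 CPM in all 28 adult libraries.

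Gpnmb, a transmembrane glycoprotein of melanosomes and lysosomes that macrophages also make, lies at chr6:49036546-49070929 on the plus strand. In the 11 kidney tumors its level had a lowest value of 2515, a median of 4801 and a highest value of 8712 CPM. The 4 retro-orbital tumors had 4300, 4048, 3002 and 4734 CPM, and the 3 brain tumors 3216, 2779 and 4240 CPM. The 6 control kidney libraries had 0.986 to 3.23 CPM with a median of 1.85, so no tumor came near them. The non-transformed kidneys of mice 1, 3, 4 and 5 had 110.8, 461.4, 379.6 and 120 CPM, above every control library and below every tumor. Gpnmb was thus the most even of the raised genes, the 2 kidney tumors of a mouse differing by 1.06 to 2.25 times in the 5 mice that had 2.

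Pmel, which builds the fibrils of the melanosome, lies at chr10:128704195-128720238 on the plus strand, and its exons overlap those of Cdk2 and Dgka on the other strand. Kidney tumors ranged from 1.29 to 520.3 CPM around a median of 21.2. Retro-orbital tumors had 886.8, 1169, 475.3 and 956.1 CPM and brain tumors 580.6, 87.5 and 363.8 CPM, compared to 0.241 to 0.694 CPM in the control kidneys. The lowest kidney tumor therefore stood little above the highest control library, whereas all 4 retro-orbital tumors were far above. The library protocol kept strand, but whether counting used it was not given in the sources used here, so reads of the overlapping ends cannot be told apart.

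Trpm1, a cation channel of melanocytes and of retinal bipolar cells, lies at chr7:64153835-64269775 on the plus strand. It ranged from 32.5 to 976.5 CPM in kidney tumors with a median of 172. Retro-orbital tumors had 1362, 862.9, 1256 and 1143 CPM, and brain tumors had 522.1, 678.9 and 182.5 CPM, while the control kidneys had 0.112 to 0.816 CPM. All 4 retro-orbital tumors exceeded the mean level of each mouse's kidney tumors. The 10 retina and retinal pigment epithelium markers summed to 4.35, 3.11, 3.59 and 1.49 CPM in the retro-orbital tumors of mice 2, 3, 5 and 6 and to 1.53 to 2.1 CPM in control kidneys, so 3 of the 4 lay above every control library. The same sum reached 18 CPM in a brain tumor and 7.11 CPM in a kidney tumor, both of mouse 4. Against control kidney 5 of the 10 were tested, with 1 called higher and 1 lower (50.4% of all genes tested were called), and against kidney tumors 8 were tested and 2 called higher (17.7%). The part of retina in the level of Trpm1 was not tested.

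Tyrp1, an enzyme of the later steps of melanin synthesis, lies at chr4:80834123-80851719 on the plus strand. It was the lowest of the genes raised in every tumor, at 0.101 to 38.4 CPM in kidney tumors with a median of 0.837. Retro-orbital tumors had 12.1, 6.33, 4.3 and 6.76 CPM and brain tumors 43.8, 3.07 and 4.92 CPM. The control kidneys held 2 counts in all, both in 1 of the 6 libraries. The kidney, retro-orbital and brain tumors held 5795, 3182 and 5358 counts in all, and no fold is given against 2 counts.

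Levels can be set beside each other between genes only per length, here as mean CPM per kilobase of exon. In kidney tumors Gpnmb had 767.6, Pmel 48.2, Trpm1 21.4, Dct 6.11 and Tyrp1 1.7 CPM per kilobase, and Mlana, the next, had 0.115. In retro-orbital tumors the order was Gpnmb at 617.3, Pmel at 380.4, Trpm1 at 78.4 and Oca2 at 6.33 CPM per kilobase. In brain tumors Dct, at 75.6 CPM per kilobase, came after Gpnmb (523.7) and Pmel (150.1) and before Trpm1 (31.3). Tyrosinase was the lowest of the 10 genes per length in kidney tumors, at 0.000719 CPM per kilobase. These orders are of means and do not hold library by library. The means of Dct rest on few libraries, that of Oca2 in retro-orbital tumors is carried by mouse 3, that of Tyrp1 in kidney tumors by mouse 6, and that of Pmel in kidney tumors lies far above its median (110.6 and 21.2 CPM).

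To ask which differences exceeded the spread between animals, counts were summed per animal and group and tested over all genes with edgeR's quasi-likelihood F-test with Benjamini-Hochberg adjustment. Compared to control kidney, 6 of the 10 genes were called higher in kidney tumors and none lower, where 19.0% of all genes tested were called in either direction. The log2 fold changes were 11.21 ± 0.55 (SE) for Gpnmb (adjusted p = 8.49e-05), 9.89 ± 0.82 for Trpm1 (adjusted p = 0.000211) and 7.78 ± 1.67 for Pmel (adjusted p = 0.0147), with 6 mice and 3 controls in each test. Tyrp1 (adjusted p = 0.0173) and Oca2 (adjusted p = 0.0126) were also called, but with 2 counts each in control kidney their fitted changes depend on the prior count of the model. Mlana was called at a log2 fold change of 1.75 ± 0.52 (adjusted p = 0.0435), from 0.0355 CPM in control kidney to 0.121 CPM in kidney tumors, and lost the call under 9 of 17 alternatives. Dct was not called (9.05 ± 3.56, adjusted p = 0.1). Sox10 and Slc45a2 had log2 fold changes of 0.01 ± 1.2 and 0.34 ± 0.67, neither past the threshold, and Tyr had too few counts to be tested. Without control mouse 1, 2 or 3, the genes called numbered 2, 3 and 2, with Gpnmb and Trpm1 called each time. Pmel and Tyrp1 lost their calls without any 1 of them, and Tyrp1 also by DESeq2, the highest adjusted p values over these settings being 0.0792 and 0.0858. Mlana was not called without any 1 control mouse, and Oca2 was not without control 1 or 3 (adjusted p up to 0.0648).

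In retro-orbital tumors 6 of the 10 genes were called higher against control kidney, where 50.4% of all genes tested were called, and in brain tumors 7 were, where 29.7% were. These comparisons and that of the kidney tumors share the same control libraries. Retro-orbital tumors had log2 fold changes of 10.89 ± 0.34 for Gpnmb, 10.81 ± 0.47 for Pmel and 11.76 ± 0.62 for Trpm1 (adjusted p = 4.92e-06, 9.49e-06 and 1.58e-05 by edgeR). Brain tumors had 10.68 ± 0.39 for Gpnmb, 9.5 ± 0.9 for Pmel and 10.47 ± 0.91 for Trpm1 (adjusted p = 0.000401, 0.00119 and 0.000894 by edgeR). Tyrp1, Oca2 and Mlana were called at both sites, and Dct was called in brain tumors only (12.69 ± 2.9, adjusted p = 0.021), a difference between the sites that did not itself pass the test (-4.11 ± 2.78, adjusted p = 0.449). Without any 1 control mouse the calls of Mlana at both sites, and those of Dct and Oca2 in brain tumors, were lost, which left 4 genes called in brain tumors. The call of Mlana in brain tumors was also lost without mouse 4, whose brain tumor had its highest level (0.745 CPM). Over these settings the highest adjusted p values in brain tumors were 0.116 for Mlana, 0.0928 for Dct and 0.0571 for Oca2 by edgeR. The median change of the 9 genes tested was 10.81 in retro-orbital and 10.47 in brain tumors on the log2 scale, while the medians over all genes tested were 0.001 and 0.06. The medians of the 9 genes include Tyrp1 and Oca2. Their fitted changes rest on 2 counts each in control kidney and depend on the prior count of the model.

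**Figure D2:**
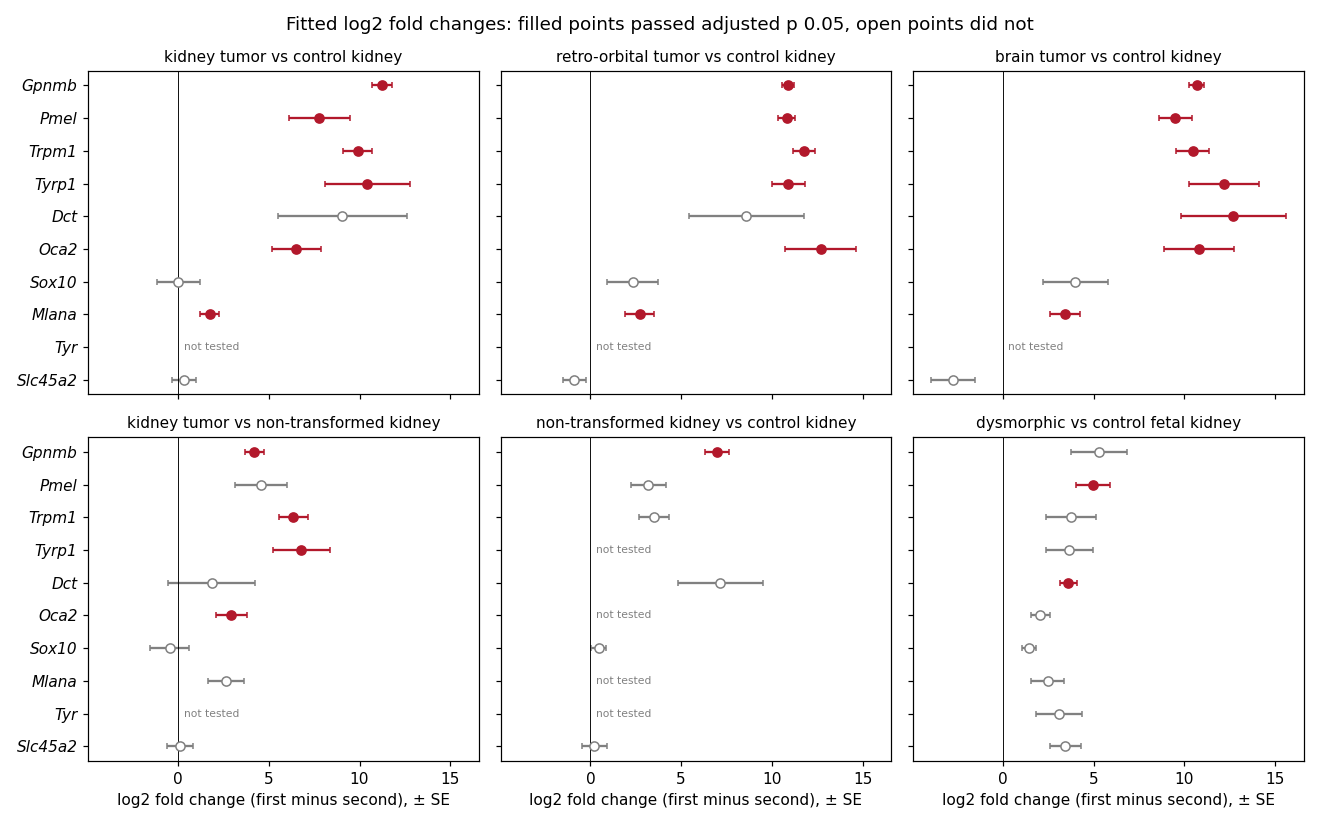
Log2 fold change with its standard error for each gene in 6 comparisons, with filled points where the adjusted p was under 0.05 and open points where it was not. Gpnmb is called at 11.21, 10.89 and 10.68 in the 3 tumor sites against control kidney, whereas Slc45a2 and Sox10 are open in every panel shown, and the changes of Tyrp1 and Oca2 against control kidney rest on 2 control counts each.

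Against the non-transformed kidneys of the same cohort of mice, 4 genes were called higher in kidney tumors (17.1% of all genes tested were called). Gpnmb had a log2 fold change of 4.2 ± 0.53 (adjusted p = 0.000878), Trpm1 of 6.36 ± 0.78 (adjusted p = 0.000746), Tyrp1 of 6.79 ± 1.55 (adjusted p = 0.0165) and Oca2 of 2.94 ± 0.86 (adjusted p = 0.0413), all by edgeR. Pmel did not pass (4.57 ± 1.43, adjusted p = 0.052), and the non-transformed kidneys of mice 3 and 4, at 8.79 and 7.78 CPM, overlapped the lower kidney tumors. With each mouse as a block 3 genes were called, Oca2 dropping out (adjusted p = 0.175), and Oca2 lost its call under 9 of 15 alternatives, among them leaving out any 1 of mice 1 to 5. Tyrp1 lost its call without mouse 1 or mouse 3, where 2 genes were called, with a highest adjusted p of 0.0659.

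Compared to control kidney, the non-transformed kidneys had 1 of these genes called, where 0.00952% of all genes tested, 2 genes in all, were called. It was Gpnmb, at a log2 fold change of 6.97 ± 0.67 (adjusted p = 0.0483 by edgeR). Pmel (3.19 ± 0.98), Trpm1 (3.5 ± 0.83) and Dct (7.16 ± 2.33) did not pass the adjusted threshold (adjusted p = 0.283, 0.206 and 0.306 by edgeR). The call of Gpnmb was lost without mouse 4 or without any 1 control, with adjusted p up to 0.627, although its change stayed between 6.59 and 7.61. The 10 macrophage markers summed to 188.8 to 374.8 CPM in non-transformed kidneys and 206.4 to 272.5 CPM in control kidneys, ranges that overlap, and none of the 10 was called.

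Macrophage markers were also examined in the tumors. Their summed level was 277.3 to 1394 CPM in kidney tumors, 502.9 to 1012 CPM in retro-orbital tumors and 271.2 to 1066 CPM in brain tumors, and 6, 9 and 3 of the 10 were called higher against control kidney, where 19.0%, 50.4% and 29.7% of all genes tested were called. The median log2 fold change of the list in kidney tumors was 1.71, with 9 of the 10 positive. The 8 kidney markers summed to 9073 to 13320 CPM in control kidneys, to 470.8 to 10390 CPM in kidney tumors and to 80.1 to 1146 CPM in retro-orbital tumors, and 1 of the 8 was called lower in kidney tumors and 8 of 8 in retro-orbital tumors, against those shares of 19.0% and 50.4%. The part of macrophages or of lost tubules in the levels of Gpnmb and the other pigment genes was not tested, and in whole tissue fewer cells of a type cannot be told apart from less RNA in each cell.

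Dct, dopachrome tautomerase, was the most uneven of the genes. Of the 11 kidney tumors, 1 of the 2 from mouse 4 had 426.6 CPM and the other 10 had 0.119 to 0.977 CPM. The brain tumors of mice 2 and 4 had 481.8 and 855 CPM while that of mouse 1 had 0.235 CPM, and the retro-orbital tumors of mice 2, 3, 5 and 6 had 0, 0.12, 100.7 and 2.23 CPM. Dct was therefore above 1 CPM in 5 of 18 tumor libraries, and in 1 of the 4 non-transformed kidneys, that of mouse 3, at 39 CPM. Dct was not high in all tumors of a mouse, since mouse 2 had it in the brain tumor and neither in the retro-orbital tumor nor in the kidney tumors (0.977 and 0.586 CPM). By counts the 2 kidney tumors of mouse 4 held 41747 and 91. Neuron markers differed between these 2 tumors as well, but not all in the same direction. Snap25, Rbfox3 and Gad1 had 14.2, 18.9 and 11.4 CPM in the tumor with high Dct and 0.352, 1.69 and 0.849 CPM in the other. In the brain tumor of mouse 4 they had 14.9, 56.2 and 10.8 CPM. Syt1 and Slc17a7 were also higher in the kidney tumor with high Dct. Nefl went the other way, at 2.49 CPM with high Dct and 203.6 CPM in the other kidney tumor. The summed neuron list was thus 58.3 CPM in the tumor with high Dct and 206.7 CPM in the other. The part of neurons in the level of Dct was not tested.

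Slc24a5, an ion exchanger needed for pigmentation and one of 14 further pigment genes examined, was high in libraries with high Dct and in others. The same kidney tumor of mouse 4 had 119 CPM, compared to 0.807 CPM in its other kidney tumor. Brain tumors of mice 1, 2 and 4 had 503.7, 233.5 and 497.5 CPM, so the brain tumor of mouse 1 had the highest Slc24a5 and almost no Dct. The non-transformed kidney of mouse 3 had 12.9 CPM of Slc24a5, where the other 3 had 0.553 to 1.42 CPM. Over 28 mean levels per animal and group, the level of Dct was most like those of Sox2 (Pearson r = 0.91), Rab15 (0.91) and Pgbd5 (0.89). This is a description over points that share mice and tissue.

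The pairs of kidney tumors from 1 mouse differed widely for Pmel as well. Mouse 2 had 520.3 and 1.29 CPM (402.1 times), mouse 4 had 124 and 7.02 CPM (17.7 times) and mouse 1 had 38.1 and 32.5 CPM. Trpm1 differed most in mouse 6, at 976.5 and 32.5 CPM (30.1 times), and there the order was opposite to that of Tyrp1, which had 6.5 CPM in the first and 38.4 CPM in the second tumor. Over these 5 mice the larger of the 2 values exceeded the smaller by 1.35 to 30.1 times for Trpm1 and by 1.02 to 6.6 times for Tyrp1. Each tumor was 1 library, so spread within a tumor was not measured.

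**Figure D3:**
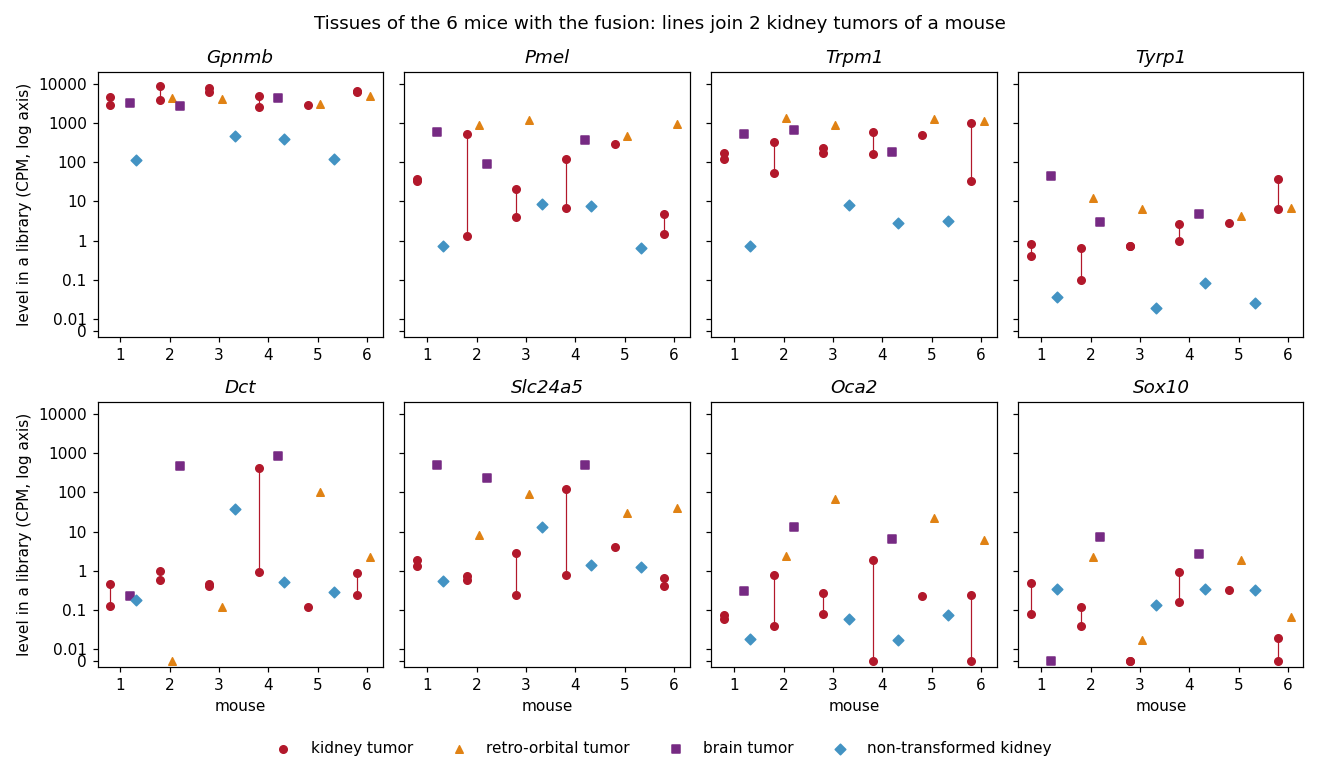
Levels of 7 of the genes and of Slc24a5 in the tumors and non-transformed kidneys of the 6 fusion mice, in CPM on a log axis by mouse, with levels of 0 drawn at 0.005 and lines joining 2 kidney tumors of a mouse. Gpnmb is even within a mouse, whereas Pmel in mouse 2 (520.3 and 1.29 CPM) and Dct in mouse 4 (426.6 and 0.942 CPM) are far apart.

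Oca2, a melanosomal membrane protein that affects the pH of the organelle, differed most between retro-orbital and kidney tumors. Retro-orbital tumors of mice 2, 3, 5 and 6 had 2.35, 69.5, 22.1 and 6.24 CPM, and brain tumors of mice 1, 2 and 4 had 0.313, 13.3 and 6.46 CPM. Kidney tumors had 0 to 1.88 CPM with a median of 0.0822, so that all 4 retro-orbital tumors lay above all 11 kidney tumors. Between retro-orbital and kidney tumors 2 genes were called (17.7% of all genes tested), Oca2 at 6.2 ± 1.05 (adjusted p = 0.00456) and Trpm1 at 1.85 ± 0.36 (adjusted p = 0.00773), both higher in the retro-orbital tumors by edgeR. The call of Trpm1 was lost when all groups shared 1 fit (adjusted p = 0.0635). Gpnmb did not pass (-0.35 ± 0.27, adjusted p = 0.398), and Pmel, although higher in all 4 retro-orbital tumors than in every mouse's mean over its kidney tumors, did not either (3 ± 0.99, adjusted p = 0.0611). Both tumor sites came from the same mice, and with the mouse as a block 3 genes were called by edgeR: Trpm1 (1.88, adjusted p = 0.0315), Oca2 (5.86, adjusted p = 0.0429) and Sox10 (3.41, adjusted p = 0.0348). Pmel had 4.25 in that fit and did not pass (adjusted p = 0.172).

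Between brain and kidney tumors 1 gene was called (8.74% of all genes tested), again Oca2, at 4.38 ± 1.04 (adjusted p = 0.0368 by edgeR). That call was lost with the mouse as a block (3.33, adjusted p = 0.302), and 0 genes were called without mouse 2, 3, 5 or 6 and 2 without mouse 4. Between retro-orbital and brain tumors 0 genes were called by edgeR and 0 by DESeq2 (1.73% of all genes tested were called by edgeR), and 1 of the 8 tested, Trpm1, had an unadjusted p under 0.05 (1.32 ± 0.44, adjusted p = 0.146 by edgeR). The 6 neuron markers summed to 95.3, 757.6 and 108.7 CPM in the brain tumors of mice 1, 2 and 4, to 40.9 to 124.3 CPM in retro-orbital tumors, to 4.77 to 206.7 CPM in kidney tumors and to 0.985 to 1.89 CPM in control kidneys. Nefl alone gave 38.3 to 122.6 CPM in the retro-orbital tumors and 203.6 of the 206.7 CPM in the kidney tumor with the highest sum, the one of mouse 4 with low Dct, whereas the other kidney tumor of mouse 4 had a sum of 58.3 CPM spread over several of these markers. In the brain tumor of mouse 1, Rbfox3 alone gave 90.5 CPM of that sum, with Snap25 at 2.33 CPM and Gad1 at 0.0391 CPM, where the brain tumor of mouse 2 had 292.2 and 193.4 CPM. The part of brain tissue in the differences was not tested.

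Sox10 was uneven among the brain tumors. It was at 0, 7.31 and 2.65 CPM in those of mice 1, 2 and 4, where the 10 Schwann cell and oligodendrocyte markers summed to 33.3, 1362 and 291 CPM in the same order. In kidney tumors Sox10 had 0 to 0.961 CPM with a median of 0.0797, in control kidneys 0.0859 to 0.32 CPM, and 3 of the 11 kidney tumors held no count. High sums of that marker list also occurred without Sox10, since the kidney tumors of mouse 3 had sums of 225.6 and 93.6 CPM with Sox10 at 0 in both, and those of mouse 6 had 160.8 and 172.3 CPM with Sox10 at 0.0198 and 0 CPM. The list summed to 9.88 to 15 CPM in control kidneys. Retro-orbital tumors had 2.3, 0.0172, 1.86 and 0.0662 CPM. Sox10 was called by edgeR in none of the 10 comparisons with no added term. With the mouse as a block it was called higher in retro-orbital than in kidney tumors (3.41, adjusted p = 0.0348 by edgeR), and in brain tumors against control kidney it was called with sex as a covariate (4.57, adjusted p = 0.00369 by edgeR) and by DESeq2 (4.01, adjusted p = 0.0345), as well as without mouse 1 and with libraries as samples. It was also called in brain against kidney tumors with all groups in 1 fit, and in dysmorphic fetal kidneys by DESeq2. The part of glia in its level was not tested. The genes most like Sox10 over the 28 mean levels per animal and group were Kcna6 (r = 0.96), Sox8 (0.93) and Ptprz1 (0.93).

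The remaining genes stayed at the bottom of the range in adult tissue. Tyr, at chr7:87424771-87493512 on the minus strand, held 26 counts in all 28 adult libraries together, of which 14 came from the retro-orbital tumor of mouse 5, and none in control or non-transformed kidneys. The kidney, retro-orbital and brain tumors held 6, 14 and 6 counts, too few to set a fold against 0 counts. Mlana held 401 counts and Slc45a2 490 counts over the adult libraries, with highest levels of 0.745 CPM in the brain tumor of mouse 4 and 0.544 CPM in a kidney tumor of mouse 2. Slc45a2, a transporter of the melanosome membrane, had 0.0692 to 0.252 CPM in control kidneys, and its log2 fold changes in the 3 tumor sites against control kidney were 0.34, -0.89 and -2.76 (adjusted p = 0.742, 0.27 and 0.135 by edgeR). The retro-orbital tumor of mouse 5 that held most of the Tyr counts also had 1376 counts of Krt14, a keratin of the epidermis, where the other 3 had 3 to 12. Of the other epidermis markers, Krt5, Krt15, Dsg3 and Trp63 were also highest in that retro-orbital tumor. Krt10 (149 counts), Krt1 (44 counts) and Lor (0 counts) were not. The part of epidermis in the level of Tyr was not tested.

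In dysmorphic fetal kidneys all 10 genes had counts in every library, including Tyr, Mlana and Slc45a2, which were near zero in the adult tissues. Every dysmorphic library lay above every control library for all 10 genes, an arrangement held by 10.5% of the 22690 genes tested. Tyr had 7.06, 2.43, 6.45, 6.69 and 1.92 CPM in dysmorphic fetuses 1 to 5 and 1.15, 0.527 and 0 CPM in control fetuses 1 to 3. Dct had 25.5, 28.3, 17.1, 21.3 and 9.54 CPM in the dysmorphic fetuses and 2.07, 1.92 and 0.857 CPM in the controls. Sox10 had 10.8, 5.8, 8.7, 8.36 and 10.7 CPM, compared to 1.57, 3.06 and 4.84 CPM. Tyr was higher in every dysmorphic fetus than in any of the 18 adult tumors, and so was Sox10 except against the brain tumor of mouse 2.

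By edgeR, 2 of the 10 genes were called higher in dysmorphic kidneys, where 2.67% of all genes tested were called. They were Pmel, at a log2 fold change of 4.98 ± 0.95 (adjusted p = 0.0402), and Dct, at 3.61 ± 0.48 (adjusted p = 0.035), with 5 dysmorphic and 3 control fetuses. All 10 changes were positive, between 1.44 ± 0.38 for Sox10 and 5.29 ± 1.54 for Gpnmb, with unadjusted p under 0.05 for all 10, and the median was 3.53 compared to -0.04 over all genes tested. DESeq2 called all 10, and 2604 genes in all compared to 605 by edgeR. With all groups in 1 fit neither Pmel nor Dct was called, and Gpnmb was. The count fell to 0 with sex as a covariate (adjusted p = 0.0582 for Pmel and 0.056 for Dct) and to 0 on leaving out dysmorphic fetus 1, 3 or 4 or any 1 control fetus. Males were 3 of the 5 dysmorphic and 1 of the 3 control fetuses by their Y-linked counts.

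The dysmorphic fetuses did not rank alike for all genes. Fetus 2 had the highest Gpnmb (549.9 CPM, compared to 167.1, 39.1, 15.2 and 66.3 in fetuses 1, 3, 4 and 5), the highest Pmel (102.3 CPM) and the highest Trpm1 (23.3 CPM), and its Dct was also the highest of the 5. The same fetus had the lowest Tyrp1 (2.74 CPM, where the others had 5.92 to 7.93), the lowest Mlana (0.442 CPM), the lowest Slc45a2 (0.571 CPM) and the lowest Oca2 (0.099 CPM) of the 5. Fetus 4 had the lowest Gpnmb and the highest Tyrp1 (7.93 CPM), Slc45a2 (2.25 CPM) and Oca2 (0.371 CPM). The order of the dysmorphic fetuses thus differed from gene to gene, and with 5 fetuses no correlation was computed.

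**Figure D4:**
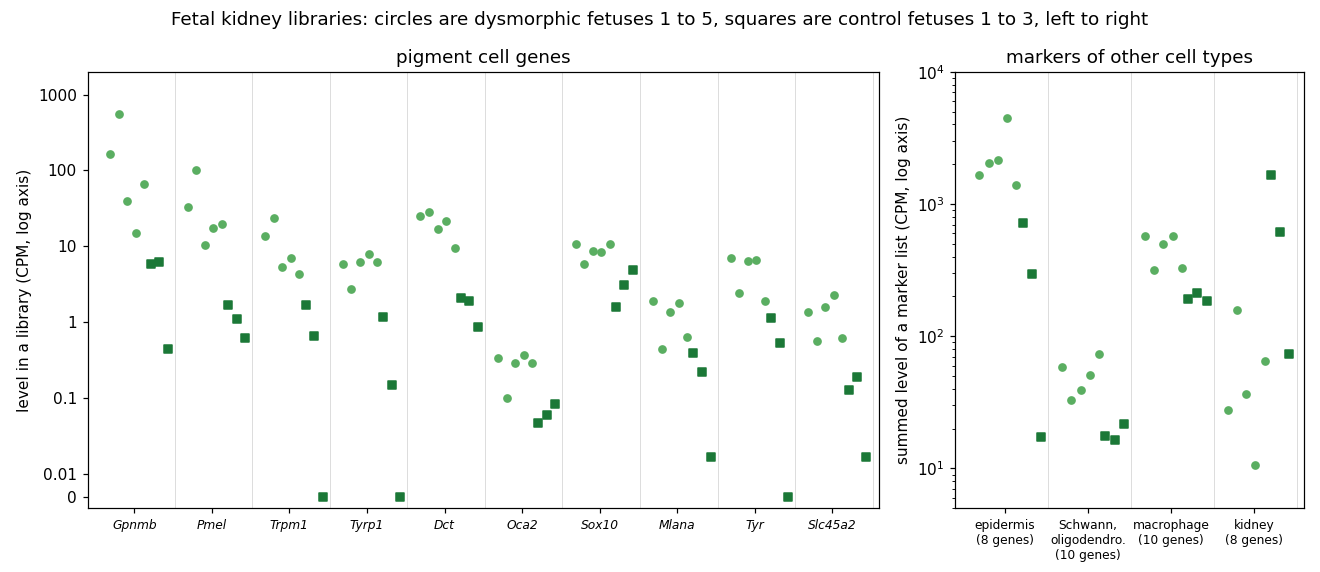
Levels of the 10 genes (left) and summed levels of 4 marker lists (right) in each fetal library, in CPM on log axes, with circles for dysmorphic fetuses 1 to 5 and squares for control fetuses 1 to 3 from left to right and levels of 0 drawn at 0.005. Every circle lies above every square for the 10 genes and for the epidermis, Schwann cell and macrophage lists, and the kidney list overlaps.

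Markers of skin, nerve and other cells were examined in the same libraries, with 2 of 8 epidermis and 3 of 7 tested Schwann cell and oligodendrocyte markers called higher (2.67% of all genes tested were called). The 8 epidermis and hair follicle markers summed to 1649, 2028, 2158, 4482 and 1385 CPM in dysmorphic fetuses 1 to 5 and to 721, 295.9 and 17.2 CPM in control fetuses 1 to 3. The 10 Schwann cell and oligodendrocyte markers summed to 33.1 to 73.8 CPM compared to 16.3 to 21.6 CPM. Control fetus 3, which had the lowest epidermis sum, also had 0 counts of Tyr, Tyrp1 and Trpm1, but the highest Sox10 of the controls (4.84 CPM). The 8 kidney markers summed to 10.7 to 157.4 CPM in dysmorphic and 73.7 to 1645 CPM in control kidneys, and 10 macrophage markers to 315.6 to 577.9 and 185.7 to 212.8 CPM. The kidney sum of control fetus 3 was 73.7 CPM, where control fetuses 1 and 2 had 1645 and 619.2 CPM. It lay below the 157.4 CPM of dysmorphic fetus 2. In the adult groups the epidermis markers summed to no more than 51.2 CPM, in the retro-orbital tumor of mouse 5. The part of skin, nerve or its pigment cells in the fetal levels was not tested.

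Whether the fusion's effect differed between the models was tested as the difference between kidney tumors against control kidney and dysmorphic against control fetal kidney. By edgeR 3 of the 10 genes were called, all more raised in the adult tumors (8.94% of all genes tested were called): Trpm1 by 6.15 ± 1.36 (adjusted p = 0.0119), Gpnmb by 5.98 ± 1.39 (adjusted p = 0.0159) and Oca2 by 4.39 ± 1.28 (adjusted p = 0.0445) on the log2 scale. The call of Oca2, which rests on 2 counts in control kidney, was lost under 17 of 25 alternatives. Leaving out control mouse 2 or 3 left 1 gene called each time, the calls of Gpnmb and Trpm1 reaching adjusted p of 0.0632 and 0.0534. Slc45a2 went the other way without passing (-3.07 ± 1.05, adjusted p = 0.0809). Model, Cre driver, age and tissue differ together here and cannot be told apart.

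Of 14 further pigment genes, 10 were called higher and 0 lower in kidney tumors compared to control kidney, with a median log2 fold change of 1.85 compared to 0.05 over all genes tested, of which 19.0% were called. In retro-orbital tumors 9 were called higher and 1 lower, where 50.4% of all genes tested were called, and in brain tumors 9 higher and 1 lower, where 29.7% were, the lower gene being Rab38 at both sites. Among them Gpr143, a receptor of the melanosome membrane, was at 15.9 to 156.7 CPM in the 18 tumors and at most 0.432 CPM in control kidneys (8.24 ± 0.99 in kidney tumors, adjusted p = 0.001 by edgeR). Myo5a, the motor that carries melanosomes, had 2262 to 6174 CPM in tumors and at most 287.2 CPM in controls, and Mreg, which acts in melanosome transfer, 29.9 to 336.7 and at most 8.07 CPM. Slc7a11, a cystine transporter that affects the color of melanin, had a log2 fold change of 7.85 ± 1.06 in kidney tumors (adjusted p = 0.00184 by edgeR). In all, 7 of the 14 (Gpr143, Tpcn2, Mc1r, Mreg, Myo5a, Slc7a11 and Cd63) lay above every control library in every tumor, compared to 4.38% of all genes with a count. Mc1r, the melanocortin receptor, was so at 0.0593 to 4.54 CPM against at most 0.036 CPM in controls, and was called higher in retro-orbital (3.13 ± 0.55) and brain tumors (2.88 ± 0.58) than in kidney tumors (adjusted p = 0.00501 and 0.0226 by edgeR). With the mouse as a block 0 of all genes were called between brain and kidney tumors, Mc1r included. Between retro-orbital and kidney tumors 1 of the 14 was called higher and 2 lower, where 17.7% of all genes tested were called.

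A list of 17 genes of the machinery that sorts cargo to lysosome-related organelles, most of them known from inherited pigment disorders, was also examined. In kidney tumors 1 was called higher (Dtnbp1, 1.04 ± 0.26, adjusted p = 0.0254) and 1 lower (Hps5, -0.48 ± 0.14, adjusted p = 0.0431) compared to control kidney, with a median of 0.24 compared to 0.05 over all genes tested, of which 19.0% were called. Against non-transformed kidney 3 were called higher and 2 lower (17.1% of all genes tested), in retro-orbital tumors 3 higher and 3 lower against control kidney (50.4%), and in brain tumors 4 higher and 0 lower (29.7%). Among 10 melanocyte lineage regulators, of which 9 were tested, 1 was called higher and 2 lower in kidney tumors against that share of 19.0%. In retro-orbital tumors 4 were called higher and 5 lower, and in brain tumors 1 higher and 3 lower, against shares of 50.4% and 29.7%. Mitf itself fell by 1.05 on the log2 scale (SE 0.22, adjusted p = 0.0137), from 31.8 to 45.6 CPM in control kidneys to 12.5 to 26.5 CPM in kidney tumors, and it was also lower in retro-orbital (-1.57 ± 0.2) and brain tumors (-1.31 ± 0.34). Tfec, a relative of Mitf, was lower at all 3 sites (-1.5 ± 0.4, -4.16 ± 0.45 and -5.22 ± 0.48), and Snai2 was higher at all 3 (1.35 ± 0.26, 2.82 ± 0.24 and 1.08 ± 0.28). Pax3, which with Sox10 acts on the Mitf promoter in melanocytes, had no count in control kidneys and at most 0.272 CPM in tumors.

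Likeness across samples was measured as Pearson's correlation of log2(CPM + 0.5) over 28 levels, each the mean over an animal's libraries in a group. These levels share mice, controls and tissue, and the correlations are given as a description. Gpnmb was most like Bhlhe41 (0.94), Hk2 (0.93), Gpr143 (0.93), Trpm1 (0.92) and Myo5a (0.91), and Trpm1 was most like Myo5a (0.96), Ndrg4 (0.96) and Cdk15 (0.95). Gpnmb and Pmel had 0.78, Pmel and Trpm1 0.87, whereas Dct had 0.21 with Gpnmb, 0.23 with Trpm1 and 0.56 with Sox10. Sox10 had -0.29 with Gpnmb. The nearest genes to Oca2 were Pcsk1n (0.86) and Dkk3 (0.85), to Tyrp1 Zfp566 (0.87) and Aloxe3 (0.87), and to Pmel Timp2 (0.93) and Hpse (0.92).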

How the data were processed

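The deposited files hold raw counts of reads per gene, made by the authors and not normalized, in a table of 28 libraries of the Sglt2-Cre model and a table of 8 libraries of the Pax8-Cre model. Per the labels, a strand-keeping total RNA kit was used on fixed tissue with no ribosomal depletion, and the submitters' processing notes name FastQC, MultiQC, Bowtie2 and STAR (2.5.2a) and the builds GRCm38 and mm10. The counter and its strand setting were not given in the sources used here. Of counts from 1 to 20, 79.04 to 84.33% were even, so counts were also tested after halving. Gene IDs (53379) were matched to symbols without their version for 53274, and gene positions are those of GENCODE M21 on GRCm38.

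Counts of an animal were summed per group (same-animal libraries were not duplicates, differing by a chi-square of 55.95 to 638.4 a gene), so n counts animals. Fits used edgeR 4.0.16 in R 4.3.3 (filterByExpr, TMM, quasi-likelihood F-test, Benjamini-Hochberg over all genes tested, threshold 0.05). DESeq2 1.42.0, RLE and upper quartile factors, no filter, all groups in 1 fit, libraries as samples, halved counts, sex as covariate, replicate blocks and leaving out each animal were the alternatives. Tissues of 1 mouse are paired by the mouse; their deviations from group means correlated at 0.20 to 0.31 for retro-orbital and kidney tumors, 0.003 to 0.21 for non-transformed kidney and kidney tumors, and -0.09 to -0.02 for brain and kidney tumors. For fetuses the start of the sample titles, whose meaning was not given, served as the block. Sex, used as a covariate, was read from Y-linked counts, and all 3 control mice were female. Level ranges and medians are over libraries, while folds, SE and p are over animals. Scripts were tested on simulated data.

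The genes, lists and tests were chosen with earlier results of these data known. Any of the 10 genes, the listed genes and the 5 genes most alike to each (among genes with a mean of at least 1 CPM) could be named. Since most small counts were even, counts were not taken as independent reads, no counting interval is given, and fitted folds of genes with few counts in 1 group depend on the prior count of the model. One marker gene is not reported here by itself.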

Additional observations from a re-analysis of the deposited data

Results flagged for a closer look

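Levels of a group that reached 1 CPM, with 4 to 10 animals, were examined for a single animal far from the others (25 levels, of which chance marks about 1 in 20), and 6 were marked. In dysmorphic fetal kidneys, fetus 2 stood apart for Gpnmb at 549.9 CPM, next to 167.1, and for Pmel at 102.3 CPM, next to 32.9. Dct stood apart in 3 groups, at 213.8 CPM as the mean of the kidney tumors of mouse 4 (next 0.781), at 100.7 CPM in the retro-orbital tumor of mouse 5 (next 2.23) and in mouse 3 among the non-transformed kidneys, where it had 39 CPM (next 0.535). Tyrp1 stood apart in the kidney tumors of mouse 6, with a mean of 22.4 CPM, next to 2.87.

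For 3 genes the adult and fetal models differed in how far the fusion samples lay from their controls, by a test of that difference, on the log2 scale by 5.98 for Gpnmb, 6.15 for Trpm1 and 4.39 for Oca2, all larger in the adult tumors. The value of Oca2 rests on 2 counts in control kidney, and its call was lost under 17 of 25 alternatives.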

How the results depend on the processing

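Of 32 calls of single genes, 32 kept their direction and 14 kept their call under every alternative, among them Gpnmb and Trpm1 against control kidney at all 3 tumor sites. Leaving out 1 animal at a time gave 2 to 7 genes called in kidney tumors against control kidney (6 with all animals), 2 to 5 against non-transformed kidney (4), 0 to 1 in non-transformed against control kidney (1), 4 to 8 in brain tumors against control kidney (7), 0 to 2 in brain against kidney tumors (1), 0 to 3 in dysmorphic kidneys (2) and 1 to 3 in the difference between models (3). DESeq2 gave 2 for non-transformed kidney (1 by edgeR), 2 for brain against kidney tumors (1, and now 1 higher and 1 lower) and 10 for dysmorphic kidneys (2). Sex as a covariate gave 2, 0 and 0 for these comparisons, libraries as samples gave 2 for non-transformed kidney, and all groups in 1 fit gave 3 for brain against kidney tumors and 1 for dysmorphic kidneys (Gpnmb, in place of Pmel and Dct). With the mouse as a replicate block 3 genes were called in kidney tumors against non-transformed kidney (4 without it), 3 in retro-orbital against kidney tumors (2, with Sox10 added) and 0 in brain against kidney tumors (1), with title prefix as a replicate block 2 in dysmorphic kidneys (2), and the block could not be fitted for retro-orbital against brain tumors. The cause was not tested in any of these.

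Counts over all genes moved too, from 4474 to 1163 without control 2 and 9405 with libraries as samples (kidney tumor against control kidney), from 3755 to 927 with the block and 5916 by DESeq2 (against non-transformed kidney), from 2 to 580 by DESeq2 (non-transformed against control kidney), from 6565 to 2831 without control 2 and 10610 in 1 fit (brain tumor against control kidney), from 3919 to 1635 without mouse 3 and 6060 by DESeq2 (retro-orbital against kidney tumor), from 2044 to 0 with the block and 6548 in 1 fit (brain against kidney tumor), from 364 to 0 without mouse 2 and 3816 in 1 fit (retro-orbital against brain tumor), from 605 to 5 with sex as a covariate, 0 without dysmorphic fetus 1 and 2604 by DESeq2 (fetal), and from 2185 to 956 without control 2 and 3655 by DESeq2 (difference between models). Upper quartile scaling shifted the median over all genes by 0.112 (log2) in retro-orbital against kidney tumors and gave 2205 genes higher and 1608 lower, compared to 1828 and 2091 with TMM. Depth limits Tyr, Mlana and Slc45a2 in adult tissue, where 3 counts in 1 library correspond to 0.0247 to 0.0374 CPM.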

Other observations

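Mir211, the gene of the microRNA hairpin in an intron of Trpm1 (chr7:64205806-64205911, plus strand), was looked at after its values were seen. Its reads come from total RNA and can be unspliced Trpm1 RNA as well as hairpin, so they do not measure the mature microRNA. It had 0 counts in all 6 control kidney libraries and 3 to 63 counts in each of the 11 kidney tumors, 114 to 255 in each of the 4 retro-orbital tumors and 44, 73 and 14 in the 3 brain tumors. The non-transformed kidneys held 1 count in 4 libraries, the dysmorphic fetal kidneys 18 counts in 5 and the control fetal kidneys 0 in 3. The lowest kidney tumor for Mir211 (3 counts) was the lowest for Trpm1 as well (32.5 CPM), and the highest (63 counts) was the highest for Trpm1 (976.5 CPM), in both cases tumors of mouse 6.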
